A study of Homo sapiens with 10 samples.

Results

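Transcripts of 8 genes whose roles in bile duct cancer are little known differed strongly between HuCCT1 cells carrying an empty vector and HuCCT1 cells carrying the construct labelled YAPS94A. They are LYPD6, SAMD5, SFTA1P, LINC01224, LRRN1, AUTS2, DCDC2 and ZNF662. They were chosen from the largest rises and falls in this same comparison, so their differences are given as a description, without a test. All 8 were found on the arrays, of 19775 genes read by probe sets with 1 gene symbol, and 15 probe sets read them. HuCCT1 is an established human cholangiocarcinoma line, and both groups of cells carried a vector. RNA was taken from 5 samples per vector and hybridised to Affymetrix arrays, which gave 10 arrays in all. YAP1 is a transcriptional co-activator restrained by the Hippo kinases. The sample labels name the S94A form, known to bind TEAD factors poorly. The series' design text instead names S127A, a constitutively active form, and which of them was used was not tested here. The labels do not say whether the 5 samples of a vector were separate cultures, transfections or clones, so the spread between arrays may be technical.

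The 8 genes do not share a pathway. LYPD6 is a membrane-anchored protein of the Ly6/uPAR family that acts on Wnt signalling at the LRP6 receptor. SAMD5 carries a sterile alpha motif, a fold through which proteins pair with each other. SFTA1P is a transcribed pseudogene named after a surfactant-associated protein, and LINC01224 is a long noncoding RNA. LRRN1 is a neuronal membrane protein with leucine-rich repeats, and AUTS2 is a nuclear protein of a variant Polycomb complex that is best known in the developing brain. DCDC2 binds microtubules through doublecortin domains and sits in primary cilia, and inherited loss of it causes a sclerosing disease of the bile ducts in infants. ZNF662 belongs to the large class of C2H2 zinc finger proteins.

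YAP1 itself was higher with the construct on each of its 3 probe sets, by 0.52 to 0.60 log2 units. Array medians lay between 6.25 and 6.28, and the lower quartile of all signals, 4.73, served as the mark below which a level is close to background. Bile duct keratins were bright with both vectors, for example KRT19 at 14.07 with empty vector and 14.30 with the construct. Over all genes 18.6% were higher and 17.6% lower at a limma adjusted p below 0.05. Of 10 measured bile duct markers 5 were higher and 2 lower. The bile duct marker CFTR fell by 3.90 ± 0.091 (SE, limma adjusted p = 2.47e-11). Of 10 hepatocyte markers 1 was higher and 1 lower, of 9 fibroblast markers 1 and 1, and of 7 endothelial, 6 leukocyte and 11 neuronal markers 0 were higher and 1 lower in each list. In these lists LUM, a fibroblast marker, rose by 2.67 and LCP1, a leukocyte marker, fell by 3.03, while PTPRC, which defines leukocytes, was at 5.25 and 5.18 and did not pass. Of the neuronal markers TUBB3 was bright, at 13.24 with empty vector and 13.28 with the construct. SYT1 fell by 0.49, from 4.16 to 3.67, below the lower quartile with both vectors. The log2 signals of the 11 added up to 65.3 to 66.0 on empty vector arrays and 64.6 to 65.4 on the others. Probe sets near background enter this sum. The part of other cells in the results was not tested. No marker list lay wholly below the lower quartile. The ratio of 3' to 5' actin control signal, a sign of RNA quality, was 1.14 to 1.51 log2 units on the arrays numbered 1 and 2 and 0.76 to 1.14 on the others, in both vectors. In bulk RNA, more cells with a transcript and more transcript per cell cannot be told apart.

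Of the 8 genes, 4 were higher and 4 were lower with the construct. On the brightest probe set of each gene the 2 groups of 5 arrays did not overlap, and this separation follows from the way the genes were chosen. Over all 54613 probe sets of the arrays, 23% had groups that did not overlap. Among genes that passed the test and had separate groups, LINC01224 was the 4th largest rise, LYPD6 the 8th, SAMD5 the 9th and SFTA1P the 12th. ZNF662 was the 4th largest fall, AUTS2 the 9th, DCDC2 the 11th and LRRN1 the 12th. SFTA1P (3.58) lay just inside the 12 largest rises and MX2 (3.57) just outside, and LRRN1 (-4.41) lay just inside the 12 largest falls and RARB (-4.26) just outside.

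**Figure D1:**
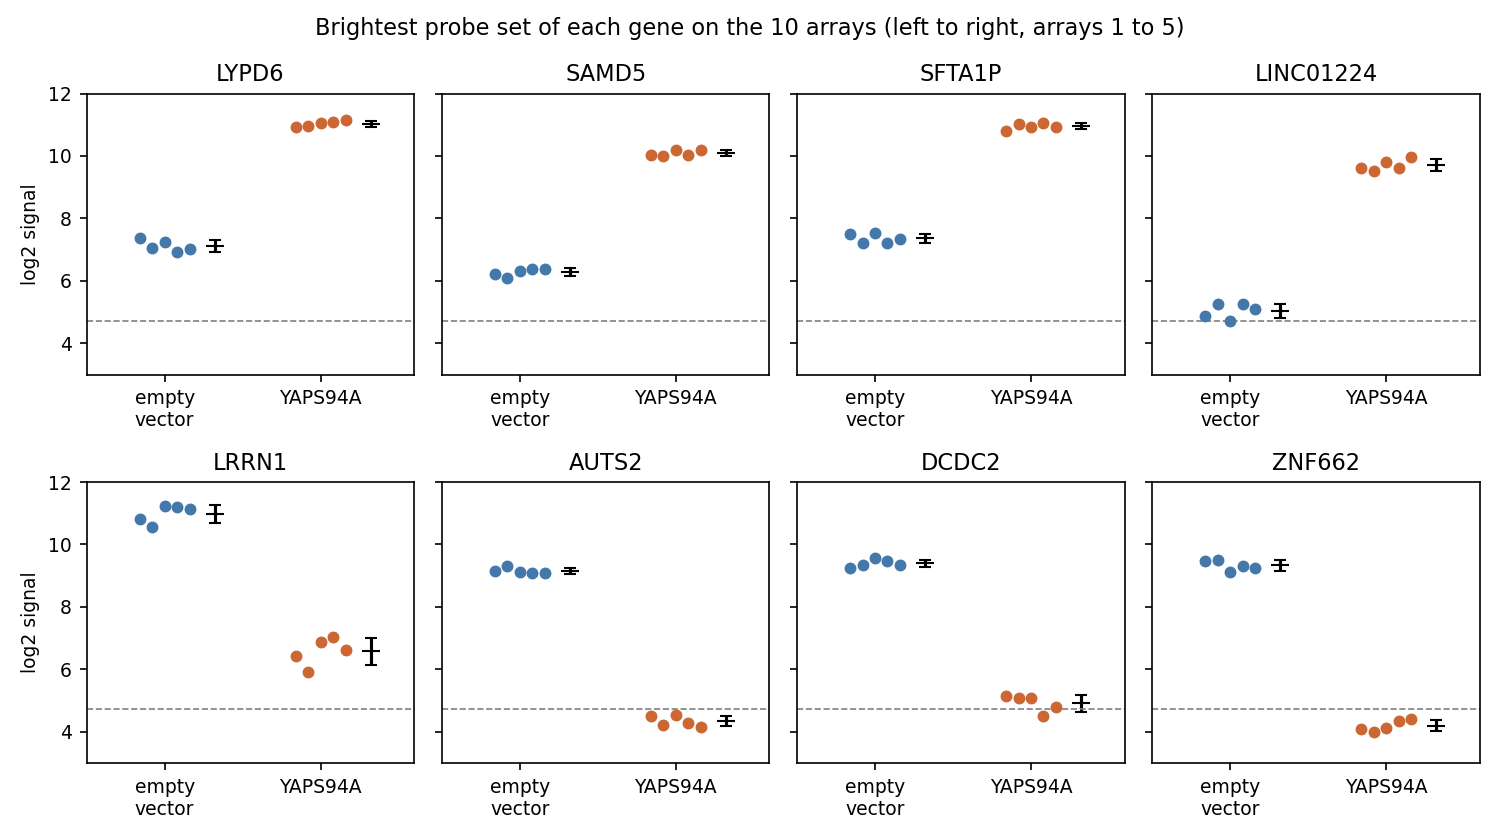
Log2 signal of the brightest probe set of each of the 8 genes on the 5 empty vector arrays (blue) and the 5 YAPS94A arrays (orange), in array order 1 to 5 within each group, with mean and SD at the right of each group and the lower quartile of all signals (4.73) dashed. LYPD6, SAMD5, SFTA1P and LINC01224 sit higher on every YAPS94A array, the other 4 genes sit lower, and with the construct AUTS2 and ZNF662 lie below the dashed line.

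LYPD6, the Wnt-related Ly6 protein, was 15.1-fold higher with the construct on its brightest probe set. The empty vector arrays 1 to 5 read 7.37, 7.07, 7.24, 6.91 and 7.03. The construct arrays read 10.93, 10.96, 11.05, 11.09 and 11.16. The lowest construct array lay 3.56 log2 units above the highest empty vector array, and the difference of the means was 3.91 ± 0.083 (log2, SE from limma, n = 5 and 5). The other probe sets moved the same way from dimmer levels. Probe set 227763_at went from 5.97 ± 0.32 to 9.82 ± 0.14 (mean ± SD, n = 5), and 239028_at from 5.89 ± 0.15 to 8.01 ± 0.096. These rises were 3.84 and 2.12 log2 units, so the size of the change depended on the probe set while the direction did not.

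SAMD5, the sterile alpha motif protein, was 14.0-fold higher on its brightest probe set. With empty vector its signals were 6.22, 6.10, 6.30, 6.39 and 6.40. With the construct they read 10.03, 9.99, 10.18, 10.03 and 10.20. Arrays of a vector agreed closely (SD 0.13 and 0.096, n = 5 each) around a difference of 3.80 ± 0.067 (SE). Probe set 242626_at rose by less, from 5.05 ± 0.13 to 6.10 ± 0.21. Probe set 1569433_at went from 3.53 ± 0.086, below the lower quartile, to 5.64 ± 0.49, and its construct arrays read 5.32, 5.16, 5.49, 5.81 and 6.41. Each of these probe sets separated the 2 vectors, with a smaller change than the brightest.

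SFTA1P, the surfactant-related pseudogene, was higher on its single probe set. Empty vector arrays gave 7.51, 7.23, 7.53, 7.21 and 7.33. Those of the construct read 10.80, 11.02, 10.94, 11.04 and 10.92. The difference was 3.58 ± 0.073 (SE), against an SD of 0.15 and 0.095 within the vectors. LINC01224, the noncoding RNA, had the largest rise of the 8. Its empty vector arrays read 4.87, 5.25, 4.73, 5.26 and 5.10, around the lower quartile of signals. Its construct arrays read 9.62, 9.52, 9.82, 9.61 and 9.98. The difference was 4.67 ± 0.12 (SE), or 25.4-fold, and because the starting level is close to background this fold is uncertain. SFTA1P and LINC01224 are each read by 1 probe set.

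LRRN1, the leucine-rich repeat protein, was 21.2-fold lower with the construct and varied most between arrays. With empty vector the arrays read 10.82, 10.57, 11.22, 11.20 and 11.12. With YAPS94A the readings were 6.44, 5.91, 6.89, 7.02 and 6.64. With both vectors array 2 was the lowest, and the SD within the vectors (0.28 and 0.44) was far below the difference of -4.41 ± 0.20 (SE). The level with the construct, 6.58, stayed above the lower quartile, unlike that of AUTS2 or ZNF662. LRRN1 is read by 1 probe set.

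AUTS2, the Polycomb-associated protein, was 28.0-fold lower on 1 of its 3 probe sets and showed no separation on the other 2. On 212599_at the empty vector arrays read 9.15, 9.30, 9.13, 9.09 and 9.08. The construct arrays read 4.50, 4.21, 4.54, 4.28 and 4.17, below the lower quartile of signals. The difference was -4.81 ± 0.077 (SE). Probe set 243365_s_at, which lay above the lower quartile, was at 6.04 ± 0.061 with empty vector and 5.99 ± 0.13 with the construct (mean ± SD, n = 5), and its groups overlapped. Probe set 243364_at lay near background with both vectors, at 3.41 and 3.47. The fall of AUTS2 therefore rests on 1 probe set, and which transcripts the 3 probe sets read was not tested.

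DCDC2, the ciliary doublecortin protein, was 22.2-fold lower on the brighter of its 2 probe sets. The empty vector arrays read 9.26, 9.35, 9.56, 9.46 and 9.35. The construct arrays read 5.14, 5.08, 5.10, 4.51 and 4.79, where arrays 4 and 5 were the lowest. The difference was -4.47 ± 0.12 (SE). Its other probe set, 222926_at, was near background with both vectors, at 3.96 ± 0.038 and 3.96 ± 0.092, and a fall could not be read there.

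ZNF662, the zinc finger protein, had the largest fall of the 8, 35.0-fold. The empty vector arrays read 9.49, 9.50, 9.11, 9.31 and 9.24. The construct arrays read 4.11, 4.01, 4.12, 4.36 and 4.40, below the lower quartile of signals. The difference was -5.13 ± 0.095 (SE), and 1 probe set reads the gene. For ZNF662, AUTS2 and DCDC2 the level with the construct was close to background, so the size of the fall is uncertain.

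**Figure D2:**
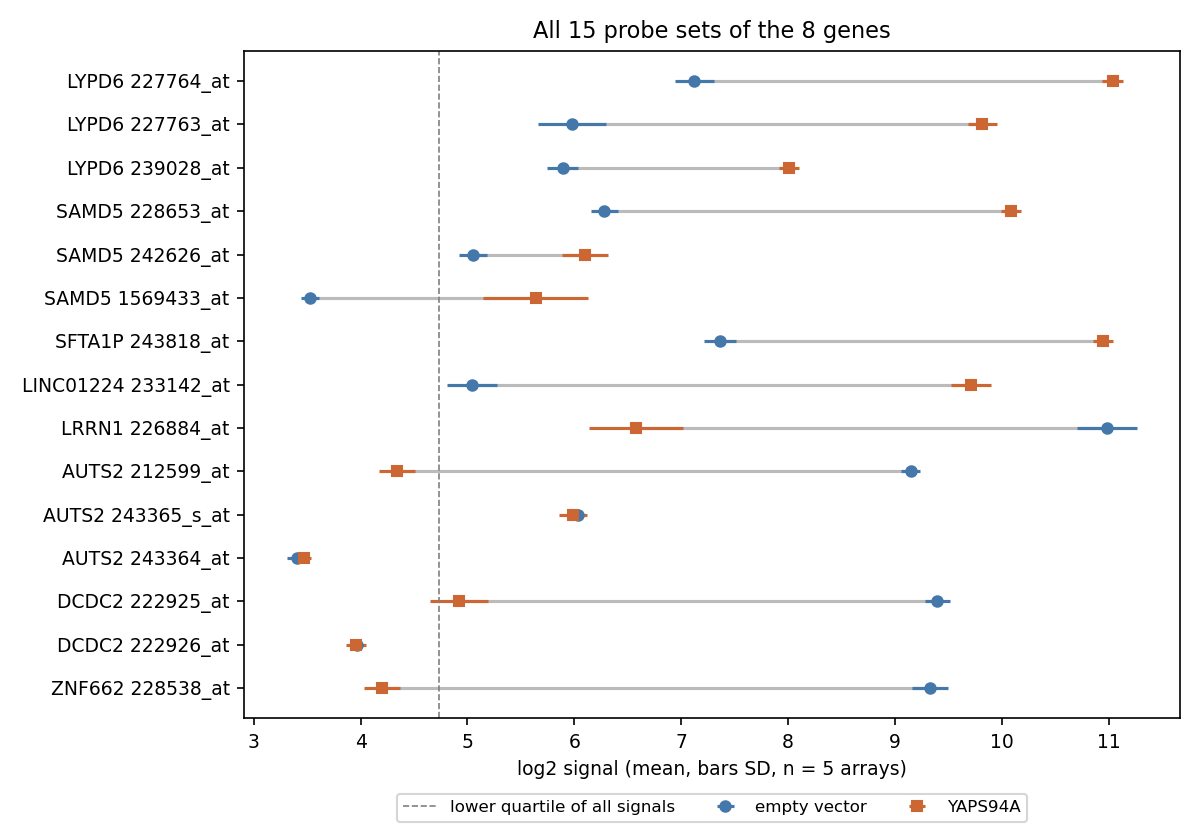
Mean log2 signal (horizontal axis, bars SD, n = 5 arrays) of all 15 probe sets of the 8 genes with empty vector (circles) and the construct (squares), with the lower quartile of signals dashed. In 12 of the 15 probe sets the vectors are apart, and in 3, the dimmer ones of AUTS2 and DCDC2, they overlap.

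Of the 15 probe sets, 8 were higher and 4 lower without overlap between the vectors, and 3 overlapped. All 7 probe sets of LYPD6, SAMD5 and LINC01224 rose, as did that of SFTA1P. In 5 of the 15, the lower group mean was below the lower quartile of signals.

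Within a vector, where the difference between vectors plays no part, the 8 genes did not vary as a group. Over the 28 pairs of genes, the correlation of deviations from the vector mean (10 arrays, brightest probe sets) was above 0.5 in 3 pairs and below -0.5 in 2. LYPD6 and SFTA1P were at 0.74, SAMD5 and LRRN1 at 0.64, LINC01224 and ZNF662 at 0.51, LINC01224 and SFTA1P at -0.74 and DCDC2 and ZNF662 at -0.78. These are descriptions over few arrays that share processing. The SD within vectors was above that of most genes for each of the 8, from 0.11 for SAMD5, larger than in 66.1% of genes, to 0.37 for LRRN1, larger than in 99.7%, against a median of 0.092.

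Other genes followed the same step between vectors. Over the 10 arrays the closest to LYPD6 were PEAK1 (r = 0.999) and ASS1 (0.999), to SAMD5 TM4SF18 (1.000) and VIM (0.999), to SFTA1P CNTNAP2 (0.999) and ZNF736 (0.999), and to LINC01224 APOBEC3B (0.998) and TM4SF18 (0.998). The closest to LRRN1 were IL1B (0.999) and CDH6 (0.998), to AUTS2 BCL2A1 (0.999) and ADGRG2 (0.999), to DCDC2 GKN2 (0.998) and ZDHHC21 (0.998), and to ZNF662 LRIG1 (0.999) and ANXA10 (0.999). With 2 groups far apart, such a correlation mainly restates that the vectors differ, and it holds for small changes too: ZDHHC21 differed by -0.50 against -4.47 for DCDC2.

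The genes beside the 8 on their chromosomes were not used in choosing them. For each gene, the 5 nearest measured genes on each side in RefSeq order were read from the same limma fit over 19775 genes, in which 36.3% of genes passed, 18.6% higher and 17.6% lower. Of these 80 neighbours 16 were higher and 14 lower, or 37.5%, a share near that of all genes. LINC01224 and ZNF662 had the most neighbours that moved in their own direction, with 6 of 10 higher and 0 lower beside LINC01224, and 5 of 10 lower and 0 higher beside ZNF662.

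**Figure D3:**
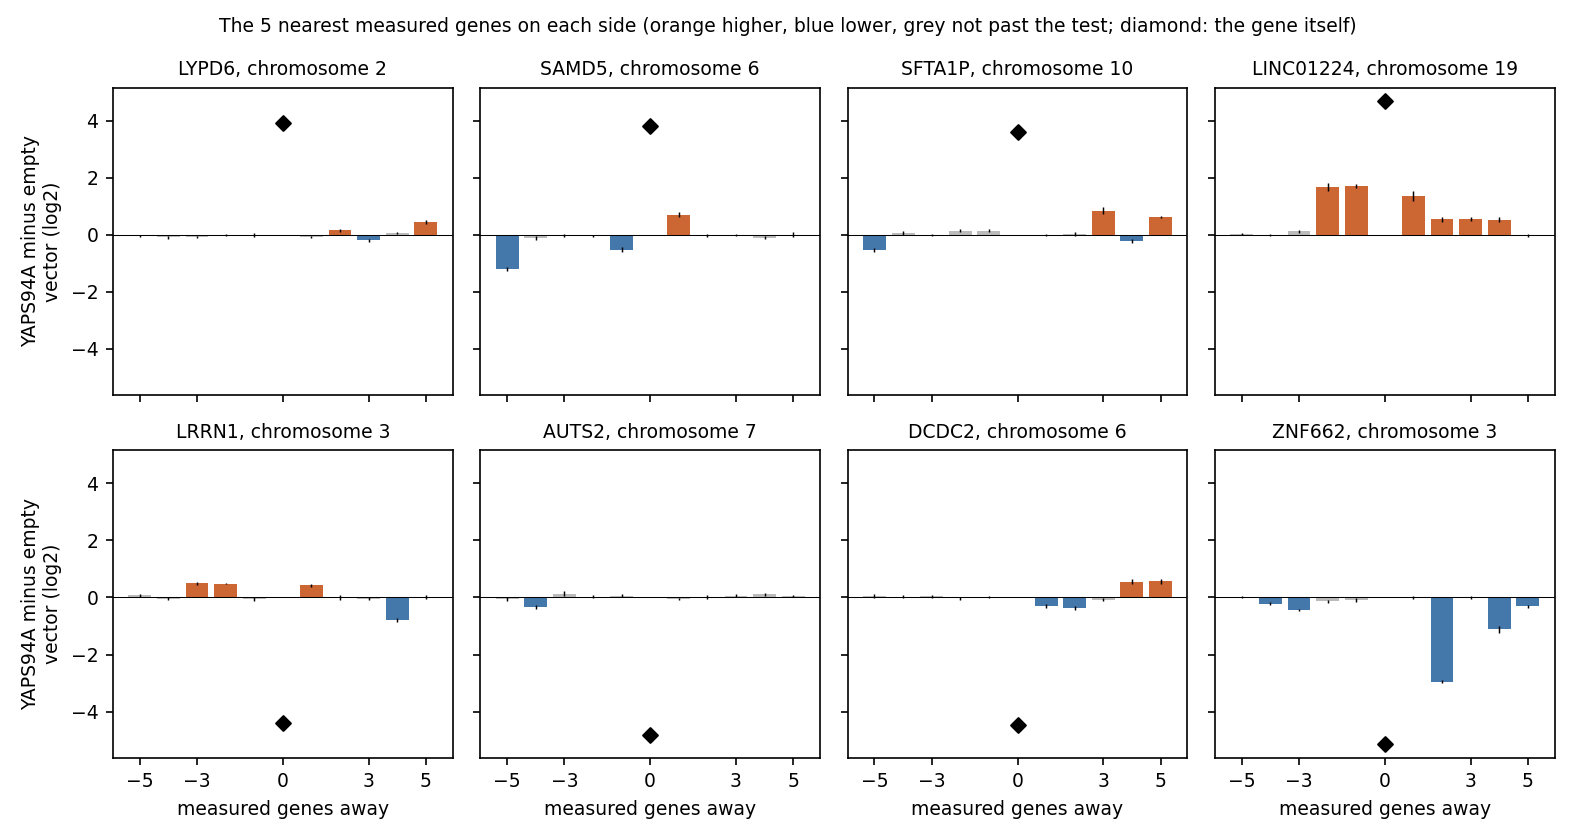
Difference between vectors (YAPS94A minus empty vector, log2, bars SE) of the 5 nearest measured genes on each side of each of the 8 genes, in order along the chromosome, with the gene itself as a diamond at 0. Beside LINC01224 6 of 10 neighbours are higher, beside ZNF662 5 of 10 are lower, and beside AUTS2 9 of 10 did not pass.

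LINC01224 lies on chromosome 19 among zinc finger genes. ZNF91, the next measured gene on one side and a repressor of transposable elements, rose by 1.70 ± 0.073 (SE, limma adjusted p = 5.52e-09). Its empty vector arrays read 5.09, 5.18, 5.22, 5.01 and 5.22. Its construct arrays read 6.80, 6.84, 7.11, 6.71 and 6.75. The groups were apart by a wide margin, and another ZNF91 probe set, 206059_at, went from 4.04 to 7.63. The remaining ZNF91 probe sets lay below the lower quartile with both vectors and differed by only 0.023 to 0.60. The pseudogene IPO5P1, next beyond ZNF91, rose by 1.67 ± 0.14 (adjusted p = 1.36e-06). Its probe set 1560446_at rose by 1.27, while 1565746_at and 1565748_at lay below the lower quartile and differed by 0.013 and 0.15. On the other side ZNF675 rose by 1.34 ± 0.18 (adjusted p = 7.28e-05), ZNF681 by 0.54 ± 0.099 and ZNF254 by 0.53 ± 0.075. ZNF675 and ZNF254 are read by _x_at probe sets, which can cross-hybridise, and zinc finger genes of this cluster resemble each other. Over the 15 nearest genes on each side 9 of 30 were higher and 1 lower, with a median of 0.038, which was 0.16 among genes above the median signal.

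The promoters of LINC01224 and ZNF91 share a run of 15 bases near their start sites, which is why both are shown. The windows run from 250 bases before to 50 after the RefSeq start, 5′ to 3′ on the gene's strand (minus for both), at chr19:23416025-23416324 and chr19:23395422-23395721 of GRCh38.p14, and capitals mark the shared run.
LINC01224: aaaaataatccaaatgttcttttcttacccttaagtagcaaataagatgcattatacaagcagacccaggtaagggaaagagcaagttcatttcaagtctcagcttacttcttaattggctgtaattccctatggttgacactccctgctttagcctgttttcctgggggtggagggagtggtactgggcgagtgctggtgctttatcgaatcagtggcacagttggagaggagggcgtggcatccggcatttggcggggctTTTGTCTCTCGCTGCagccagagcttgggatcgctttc
ZNF91: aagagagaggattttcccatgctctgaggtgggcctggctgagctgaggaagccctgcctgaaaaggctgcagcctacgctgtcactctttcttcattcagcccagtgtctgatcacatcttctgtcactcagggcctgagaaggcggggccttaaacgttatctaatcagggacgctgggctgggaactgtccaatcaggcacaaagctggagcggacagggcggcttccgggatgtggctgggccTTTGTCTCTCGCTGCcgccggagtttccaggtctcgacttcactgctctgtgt
The run was found as the longest string common to both windows, after the values were seen. It was present in 12 of 35116 promoter windows (0.0342%, both strands searched), 11 of them of genes named ZNF with a number and 10 on chromosome 19. ZNF91 and ZNF675, both neighbours of LINC01224, were the 2 that rose among the 9 other measured genes with the run. Over all genes 18.6% were higher. The run was taken from ZNF91 after its rise was seen, so ZNF91 counts among the 2 by construction. Of the rest ZNF92 fell by 0.15 ± 0.052 (adjusted p = 0.0409) and 6 did not pass, among them ZNF85 at -0.026 and ZNF273 at 0.23. Of these 6, ZNF208 and ZNF492 lay below the lower quartile with both vectors, where a change could be missed. The median of the 9 was 0.038.

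ZNF662 lies on chromosome 3. KRABD1, a short KRAB domain gene that is the second measured gene beside it, fell by 2.95 ± 0.066 (limma adjusted p = 1.76e-11), or 7.71-fold. Its empty vector arrays read 8.48, 8.58, 8.59, 8.66 and 8.66. Its construct arrays read 5.43, 5.58, 5.74, 5.72 and 5.76. No array of one vector came near the other. POMGNT2, a glycosyltransferase gene of dystroglycan modification, fell by 1.11 ± 0.12 (adjusted p = 2.01e-05), the mitochondrial gene HIGD1A (an _x_at probe set) by 0.45 ± 0.034 and the kinase gene SNRK by 0.31 ± 0.045. The nearest measured gene on that side, the antisense gene KRABD1-AS1, was near background and differed by 0.003. Over 30 genes 14 were lower and 0 higher (median -0.19, or -0.27 among genes above the median signal).

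Among the 10 nearest genes of each of the other 6, some rose and some fell, except beside AUTS2, where 1 fell and 0 rose. Beside SAMD5, RAB32, a small GTPase gene, fell by 1.21 ± 0.079 (limma adjusted p = 1.94e-07) and STXBP5, which regulates vesicle release, by 0.53 ± 0.088, and over 30 genes 15 were lower and 2 higher (median -0.13, or -0.28 among genes above the median signal). SASH1, a scaffold gene that also holds sterile alpha motifs and is the next measured gene after SAMD5, rose by 0.70 ± 0.077 (adjusted p = 1.76e-05). SASH1 read 10.37, 10.58, 10.63, 10.78 and 10.77 with empty vector. With the construct it read 11.25, 11.23, 11.32, 11.41 and 11.44, above each empty vector array. SFTA1P had 14 of 30 neighbours higher and 3 lower (median 0.14, or 0.47 among genes above the median signal). Its nearest ones, CELF2, an RNA-binding protein gene, and LINC00710, did not pass (0.15 and -0.018), while USP6NL rose by 0.84 ± 0.11 and GATA3 fell by 0.53 ± 0.066.

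LYPD6 lies beside its paralogue LYPD6B, which was at 4.29 ± 0.11 in empty vector cells and at 4.30 ± 0.14 in the others (SD, n = 5), below the lower quartile. LYPD6B differed by 0.004 ± 0.072 (SE, limma adjusted p = 0.978), but at such a dim level a change could be missed. LRRN1 fell while some nearby genes rose. CRBN, a ubiquitin ligase receptor gene, rose by 0.49 ± 0.033 and SUMF1, the sulfatase-modifying enzyme gene, by 0.43 ± 0.050. The measured gene between CRBN and LRRN1 did not pass (-0.045), and the calcium channel gene ITPR1 fell by 0.80 ± 0.066. Beside AUTS2, 1 of 10 neighbours passed, TYW1 (-0.34 ± 0.076). On one side of DCDC2 the nearest genes, KAAG1 (-0.29 ± 0.075) and MRS2 (-0.37 ± 0.055), fell. Farther on, ALDH5A1 (0.55 ± 0.091) rose from a bright level, 9.62 to 10.16, and KIAA0319 (0.57 ± 0.087) rose from near background. On the other side of DCDC2 none of the 5 nearest genes passed in limma, and the first, NRSN1, differed by 0.02. All these differences were small beside those of LYPD6, LRRN1, AUTS2 and DCDC2.

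Genes related to the 8 by family or process were read from the same fit, with the 8 themselves left out, against 18.6% of all genes higher and 17.6% lower and a median of -0.004. Of 21 measured Ly6/uPAR genes 5 were higher and 2 lower (median 0.039). PLAUR, the urokinase receptor gene, fell by 0.61 ± 0.051 (limma adjusted p = 1.70e-06), LY6E rose by 0.58 ± 0.053 (3.86e-06) and PSCA fell by 0.58 ± 0.067 (2.65e-05). Among genes above the median signal 3 of the list were higher and 1 lower. Of 25 genes of Wnt receptors and the LRP6 complex, a list that also holds secreted DKK inhibitors, intracellular DVL and AXIN genes and CTNNB1, 3 were higher and 6 lower (median 0.003). FZD1, a Wnt receptor, rose by 1.13 ± 0.054 (adjusted p = 1.26e-08), FZD7 fell by 0.75 ± 0.054 (4.67e-07) and the secreted protein gene DKK3 fell by 1.21 ± 0.091 (6.36e-07). LRP6, the receptor on which LYPD6 acts, fell from 11.23 ± 0.098 to 10.59 ± 0.099 (SD, n = 5), by 0.64 ± 0.059 (SE, adjusted p = 3.99e-06). DKK3 also fell on its other _s_at probe sets (-0.91 and -1.19), but not on the brightest without that suffix, which is near background (-0.027, adjusted p = 0.767). In the mean of probe sets 5 genes of this Wnt list were higher, and without _x_at and _s_at probe sets 3 were lower.

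Of 16 other sterile alpha motif genes 5 were higher and 1 lower (median 0.093). SAMSN1, an adaptor gene, rose by 1.45 ± 0.062 (limma adjusted p = 5.16e-09), SASH1 rose as given above, and SAMD13 rose by 0.47 ± 0.070 (0.000212). Of 9 surfactant genes 4 were higher and 0 lower (median 0.040). SFTA2 (surfactant associated 2) went from 10.55 ± 0.14 to 12.27 ± 0.061 (SD, n = 5), a rise of 1.71 ± 0.063 (SE, adjusted p = 1.51e-09). LAMP3, a lysosomal membrane protein gene that is also interferon-induced, rose by 1.46 ± 0.045 (3.40e-10). SFTPD rose by 0.21 ± 0.063 (0.0203), and this call was lost without empty vector array 5 (0.0510), without YAPS94A array 1 (0.0513) and without the arrays numbered 1 and 2 (0.136), where 2 of the list were higher. Without empty vector array 2, or without the arrays numbered 1 and 2, 1 surfactant gene was lower. The surfactant protein genes SFTPB and SFTPC and the lung factor gene NKX2-1 did not pass (0.011, -0.076 and -0.022).

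Of 27 leucine-rich repeat membrane protein genes 5 were higher and 7 lower (median 0.019). LRIG1, which restrains growth factor receptors, went from 10.11 ± 0.052 to 7.04 ± 0.11 (SD, n = 5) and fell by 3.07 ± 0.052 (SE, limma adjusted p = 3.48e-12). SLITRK5 rose by 1.96 ± 0.10 (3.25e-08) and FLRT2 by 0.83 ± 0.069 (1.69e-06). Among the LRRN genes LRRN4 fell by 1.05 ± 0.095 (3.33e-06) on an _x_at probe set, and LRRN2 and LRRN3 did not pass (0.049 and 0.048). Among genes above the median signal 1 of the list was higher and 4 lower. The 3 other LRIG1 probe sets were dimmer and differed by 0.011 to 0.042, with groups that overlapped. Of these, 240140_s_at lay well above the lower quartile of signals, at 6.73 with empty vector and 6.77 with the construct. The fall of LRIG1 therefore rests on 1 probe set, 211596_s_at.

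Of 22 genes of the AUTS2 family and the Polycomb complexes 4 were higher and 7 lower (median -0.073), with small changes. CSNK2A2, a catalytic subunit of the casein kinase 2 that AUTS2 complexes hold, fell by 0.49 ± 0.040 (limma adjusted p = 1.60e-06), CBX6 rose by 0.39 ± 0.039 (8.09e-06) and PHC1 fell by 0.41 ± 0.046 (1.88e-05). FBRSL1, the closest relative of AUTS2, rose by 0.31 ± 0.056 (0.000855), and FBRS fell by 0.18 ± 0.057 (0.0293). PCGF3 and PCGF5, which define the AUTS2 complexes, did not pass (-0.056 and 0.056). Without _x_at and _s_at probe sets 2 genes of the list were higher.

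Of 7 measured doublecortin genes 0 were higher and 1 was lower in limma, DCLK2 (-0.13 ± 0.046, adjusted p = 0.0485), a call lost in all but 1 of 18 alternative analyses. DCX, the founding member, was near background (4.30 with both vectors). Of 38 primary cilium genes 12 were higher and 7 lower (median 0.088). BBS9 and BBS2, of the complex that carries cargo into cilia, rose by 0.85 ± 0.075 (limma adjusted p = 2.68e-06) and 0.47 ± 0.055 (3.06e-05). PKHD1, the fibrocystin gene of the bile duct and kidney cilium, fell from 6.28 ± 0.23 to 5.36 ± 0.15 (SD, n = 5), by 0.92 ± 0.11 (SE, adjusted p = 2.79e-05). Its other probe sets lay below the lower quartile, with overlapping groups, and differed by -0.016 and -0.17. The transport genes IFT88 and KIF3A did not pass (0.18 and 0.17). Without _x_at and _s_at probe sets 7 cilium genes were higher.

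Of 424 genes named ZNF with a number 64 were higher and 132 lower (median -0.065). The smallest p-values belonged to ZNF736, which rose by 3.24 ± 0.048 (limma adjusted p = 1.13e-12) from below the lower quartile, ZNF239, which was 8.02-fold lower (9.20e-12), and ZNF717, which fell by 2.99 ± 0.064 (1.30e-11). Another ZNF717 probe set, 221370_at, lay just above the lower quartile, at 4.77 with empty vector and 4.85 with the construct. It differed by 0.076, with groups that overlapped. Of 17 genes of the machinery through which KRAB zinc finger proteins repress 0 were higher and 9 lower (median -0.14). PPHLN1 fell by 0.30 ± 0.037 (4.81e-05), and TRIM28, the central co-repressor, fell by 0.21 ± 0.073 (0.0448). TASOR fell by 0.52 ± 0.051 on its brightest probe set (6.41e-06) but was at 0.41 on the brightest without an _s_at suffix (0.0543). Its remaining probe set, 209284_s_at, was bright (10.99 and 11.13) and differed by 0.13, with groups that overlapped. MBD3 fell by 0.22 ± 0.039 (0.000810) on an _x_at probe set, and its other probe sets differed by -0.027 and -0.017. The count of 9 became 5 without empty vector array 3 or without YAPS94A array 1, 3, 4 or 5. With the array number as replicate block 2 genes of this list were higher, and 1 was higher in the mean of probe sets, with array weights, without YAPS94A array 2 and without the arrays numbered 1 and 2.

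**Figure D4:**
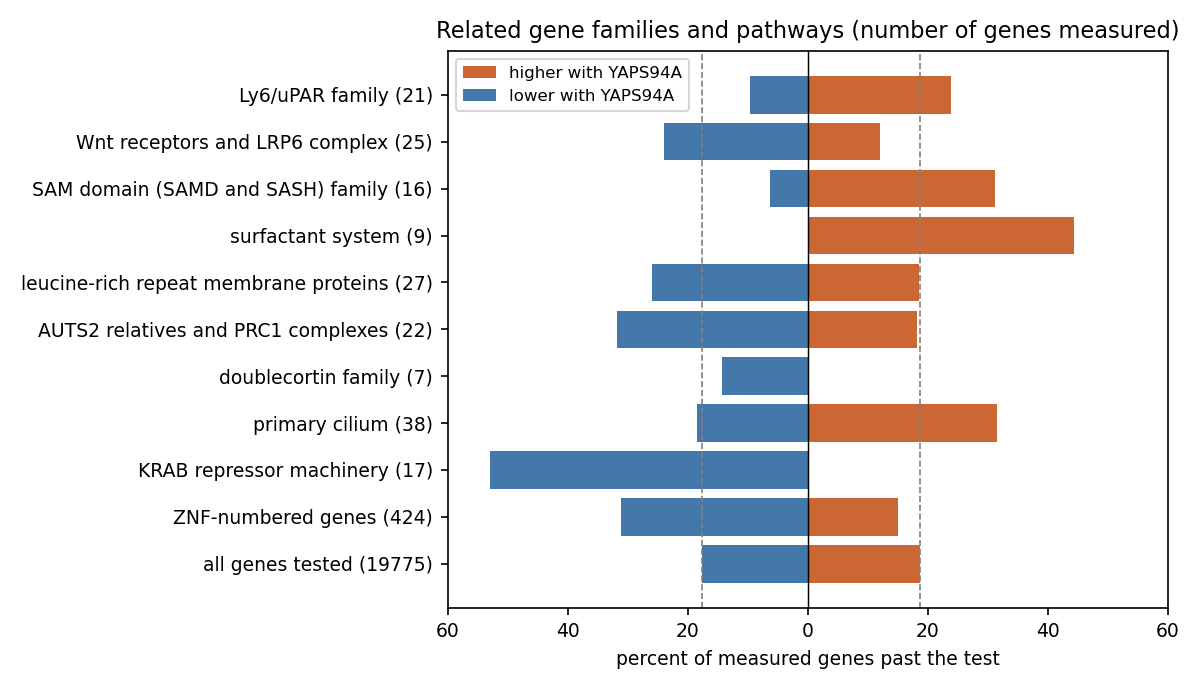
Percent of the measured genes of each family or pathway list that were higher (orange, right) or lower (blue, left) with the construct at a limma adjusted p below 0.05, with the number measured in parentheses and the shares of all genes dashed (18.6% higher, 17.6% lower). The repressor machinery of KRAB proteins has 0 of 17 higher and 9 lower, and the surfactant list 4 of 9 higher and 0 lower.

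RefSeq promoter windows of GRCh38.p14 were given for 6 of the 8 genes, 7 windows in all because LYPD6 has 2 starts. None of the 7 held the TEAD core motif GGAATG, the AP-1 motif TGANTCA or TATAAA on either strand, and these letters occur in 14.0%, 7.71% and 11.5% of all 35116 windows. CCAAT, present in 34.6% of windows, was found for LYPD6, LINC01224, LRRN1 and DCDC2. The windows differed in CpG content within the genes that fell. AUTS2 had 55 CpG pairs, more than 99.6% of windows, LRRN1 had 42 and ZNF662 24, whereas DCDC2 had 7, against a median of 14. LYPD6 had 49 at one start and 11 at the other, and LINC01224 had 7. The 2 extremes among the genes that fell are shown with each CpG in capitals, AUTS2 on the plus strand at chr7:69598225-69598524 and DCDC2 on the minus strand at chr6:24358010-24358309.
AUTS2: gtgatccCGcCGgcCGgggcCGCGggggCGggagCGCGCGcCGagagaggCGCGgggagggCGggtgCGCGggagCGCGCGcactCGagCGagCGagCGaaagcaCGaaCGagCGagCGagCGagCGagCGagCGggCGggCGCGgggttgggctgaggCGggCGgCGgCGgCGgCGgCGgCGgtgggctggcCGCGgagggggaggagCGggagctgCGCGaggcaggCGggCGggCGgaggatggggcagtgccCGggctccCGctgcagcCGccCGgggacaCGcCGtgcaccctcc
DCDC2: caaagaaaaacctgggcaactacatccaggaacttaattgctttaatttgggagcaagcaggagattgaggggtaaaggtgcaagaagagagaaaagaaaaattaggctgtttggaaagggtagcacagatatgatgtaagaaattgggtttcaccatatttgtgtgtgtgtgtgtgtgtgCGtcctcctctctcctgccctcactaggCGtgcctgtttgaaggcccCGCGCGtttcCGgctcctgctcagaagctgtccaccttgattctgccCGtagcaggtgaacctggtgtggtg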

How the data were processed

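RNA of 10 HuCCT1 samples, 5 per vector, was amplified and labelled as biotin cDNA, per the labels' protocols, and hybridised to Affymetrix arrays. The deposited values are log2 signals of 54675 probe sets, and the authors' summarisation, normalization and log base are not given in the sources used here. The log base was taken from the range of 2.86 to 14.43. Quartiles were nearly equal, so no normalization was added. An array signal holds no molecule count, and no detection calls were used. The number of arrays also limits the precision, and the spread between them may be technical.

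Gene names came from the platform annotation (41097 had 1 symbol, 1801 several and 11777 none), with symbols updated through RefSeq of GRCh38.p14. 41037 of these probe sets matched outside the 62 control probe sets, which were left out. Each gene was read by its brightest probe set. Vectors were compared over 19775 genes with limma 3.58.1 in R 4.3.3 (lmFit, eBayes, two-sided, Benjamini-Hochberg, threshold 0.05), with no covariate. The same fit over all 54613 probe sets gave the SEs of the 8 genes. The fit was tested on simulated data. Alternatives covered normalization, dim genes, probe set choice, variance model, array weights, the array number as a block and each array left out. Leaving out the arrays numbered 1 and 2 was chosen after seeing the data.

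The 8 genes and the lists were chosen with earlier results of these data known. Named were the 8 genes, up to 3 genes with the smallest p from each list, neighbours that passed with at least 1 log2 unit, the 2 genes closest in pattern, and those at ranks 12 and 13. LYPD6B, SASH1, ZNF681, ZNF254, ZNF92, ZNF85, ZNF273, ZNF208, ZNF492, HIGD1A, SNRK, STXBP5, USP6NL, GATA3, CELF2, LINC00710, KRABD1-AS1, CRBN, SUMF1, ITPR1, TYW1, KAAG1, MRS2, ALDH5A1, KIAA0319, LRP6, the LRRN genes, DCX, FBRSL1, FBRS, PCGF3, PCGF5, IFT88, KIF3A, SFTPB, SFTPC, NKX2-1, TRIM28, KRT19, CFTR, LUM, LCP1, PTPRC, TUBB3, SYT1 and NRSN1 were chosen after their values were seen. Both vectors share the array numbers 1 to 5, and deviations of same-numbered arrays correlated at 0.10 to 0.59, above 0.1 in all 5 pairs. The numbers may pair the arrays, but correlations of differently numbered arrays are not given beside these, and no label states a batch. Whether the arrays are paired by number was not tested. Protein sequences were not used here.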

Additional observations from a re-analysis of the deposited data

Results flagged for a closer look

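Of 30 groups of 5 arrays, over the 15 probe sets of the 8 genes, 2 held an array far from the others, where chance gives about 1 in 20. On the dimmest AUTS2 probe set, 243364_at, empty vector array 3 read 3.24 while the other 4 lay between 3.43 and 3.49. On the dimmer DCDC2 probe set, 222926_at, YAPS94A array 2 read 3.80 while the other 4 lay between 3.97 and 4.03. Both probe sets were near background with both vectors, and none of the differences described for AUTS2 or DCDC2 rests on them.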

How the results depend on the processing

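Each of the 8 genes kept its direction in all 19 alternatives. The mean of all probe sets of a gene gave a smaller difference for LYPD6 (3.29), SAMD5 (2.32), AUTS2 (-1.60) and DCDC2 (-2.24), since dimmer probe sets enter it. ZNF662 was at -4.93 without the arrays numbered 1 and 2. With the array number as replicate block the differences of the 8 genes were the same (LYPD6 3.91), while over all genes 7046 passed both with and without it, 1108 only with it and 126 only without it. Over all alternatives 2899 to 4175 genes were higher and 2840 to 3979 lower. TASOR turned to 0.00833 as the mean over its probe sets and to 0.41 without _x_at and _s_at probe sets. The median over the 30 neighbours of LYPD6 turned from -0.016 to 0.00385 without _x_at and _s_at probe sets, and the AUTS2 and DCDC2 medians, both near 0, also changed sign (0.00633 in the mean of probe sets and -0.000806 without _x_at and _s_at). Among genes above the median signal, where fewer genes enter, the neighbour medians moved for SFTA1P (0.47), LRRN1 (0.46), LINC01224 (0.16) and SAMD5 (-0.28). They also moved for ZNF662 (-0.27), DCDC2 (0.052) and LYPD6 (-0.038), while that of AUTS2 stayed near its value (-0.011). The ZNF662 neighbour median ranged from -0.27 to -0.13 over the 19 alternatives and moved in 5. Why ZNF662 itself was at -4.93 without the arrays numbered 1 and 2 was not tested. Levels near background limit the folds of LINC01224, AUTS2, DCDC2 and ZNF662.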
